A study of Mus musculus with 7 samples.

Results

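Long intergenic noncoding RNAs (lincRNAs) are spliced or unspliced transcripts that lie largely outside protein-coding genes and hold no long open reading frame. The starts of 1232 lincRNA genes were examined, which are all genes of type lincRNA on the autosomes in the GENCODE M1 annotation of the mouse genome build mm9 (NCBIM37), among 34653 autosomal genes of every type. The rule that selects them uses the annotation and no measured value, although the group was taken up with earlier results of these data known. For each gene a window of 2 kb on each side of its start was used.

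The study deleted a distal enhancer of Sox2, the gene of a core pluripotency transcription factor, in F123 cells, a hybrid mouse embryonic stem cell (ESC) line from a cross of CAST and 129 mice. ChIP-seq of H3K4me3 and H3K27ac was performed in unedited F123 cells, and ChIP-seq of H3K27ac also in J1 cells, another mouse ESC line. Strand-specific RNA-seq of polyadenylated RNA was performed in wild type F123 cells and in 3 edited genotypes. CAST+/129- cells lacked the enhancer on the 129 allele, CAST-/129+ cells lacked it on the CAST allele, and CAST-/129- cells lacked it on both. Each edited genotype is represented by 1 clone, which had been selected with puromycin on mouse feeder cells, and cells were grown without feeders before harvest. There was 1 library per condition, so that no difference between genotypes was tested and the intervals given are exact 95% intervals of counting error only.

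H3K4me3 is deposited around active and poised promoters, mostly those rich in CpG dinucleotides. H3K27ac marks active promoters and active enhancers. Many lincRNA genes begin beside the promoter of a protein-coding gene and are transcribed away from it, and others begin at enhancers or at promoters of their own, including genes that carry small nucleolar RNAs in their introns.

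Promoter sequences of 6 lincRNA genes are shown because they stand for the kinds of start described below. Each runs 5′ to 3′ on the strand of the gene, from 250 bases before the start, with 50 bases from the start on, in NCBIM37, and CG dinucleotides are in capitals. Snhg5, on the minus strand at chr9:88417672-88417971, carried both marks and abundant RNA. Gm17494, on the minus strand at chr3:121996418-121996717, carried both marks and gave no RNA alignment in any library. 2500002B13Rik, on the plus strand at chr8:59966601-59966900, begins beside the protein-coding gene Sap30. Gm17337 at chr12:12794541-12794840 and Gm11019 at chr13:98204675-98204974, both on the plus strand, and 1110002J07Rik on the minus strand at chr10:66382957-66383256 carried H3K27ac without H3K4me3.
Snhg5: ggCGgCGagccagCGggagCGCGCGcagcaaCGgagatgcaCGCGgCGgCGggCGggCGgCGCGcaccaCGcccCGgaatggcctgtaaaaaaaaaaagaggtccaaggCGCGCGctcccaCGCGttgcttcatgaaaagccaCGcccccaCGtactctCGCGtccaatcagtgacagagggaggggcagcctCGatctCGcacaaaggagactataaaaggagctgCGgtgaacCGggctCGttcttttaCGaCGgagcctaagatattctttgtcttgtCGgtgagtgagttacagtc
Gm17494: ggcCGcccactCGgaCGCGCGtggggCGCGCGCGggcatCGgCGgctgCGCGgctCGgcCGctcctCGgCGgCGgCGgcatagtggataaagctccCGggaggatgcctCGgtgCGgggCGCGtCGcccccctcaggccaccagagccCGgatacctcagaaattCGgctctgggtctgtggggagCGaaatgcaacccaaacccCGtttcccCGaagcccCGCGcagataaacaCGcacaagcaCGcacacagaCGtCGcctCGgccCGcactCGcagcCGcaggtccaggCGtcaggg
2500002B13Rik: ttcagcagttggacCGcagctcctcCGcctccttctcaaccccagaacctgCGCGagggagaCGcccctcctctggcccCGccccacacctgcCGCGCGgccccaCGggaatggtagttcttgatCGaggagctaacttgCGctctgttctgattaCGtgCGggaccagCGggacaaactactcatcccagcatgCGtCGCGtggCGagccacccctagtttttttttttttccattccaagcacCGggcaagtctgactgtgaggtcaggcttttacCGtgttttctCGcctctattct
Gm17337: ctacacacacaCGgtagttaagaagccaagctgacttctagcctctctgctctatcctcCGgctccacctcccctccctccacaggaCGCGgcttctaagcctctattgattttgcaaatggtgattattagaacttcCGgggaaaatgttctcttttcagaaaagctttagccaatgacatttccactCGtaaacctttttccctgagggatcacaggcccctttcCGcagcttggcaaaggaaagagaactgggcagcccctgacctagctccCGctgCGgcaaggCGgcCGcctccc
Gm11019: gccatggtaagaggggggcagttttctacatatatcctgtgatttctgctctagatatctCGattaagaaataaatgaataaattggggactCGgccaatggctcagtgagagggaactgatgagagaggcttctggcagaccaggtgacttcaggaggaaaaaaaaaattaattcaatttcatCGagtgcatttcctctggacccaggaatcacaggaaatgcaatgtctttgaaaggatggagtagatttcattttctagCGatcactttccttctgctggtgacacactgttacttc
1110002J07Rik: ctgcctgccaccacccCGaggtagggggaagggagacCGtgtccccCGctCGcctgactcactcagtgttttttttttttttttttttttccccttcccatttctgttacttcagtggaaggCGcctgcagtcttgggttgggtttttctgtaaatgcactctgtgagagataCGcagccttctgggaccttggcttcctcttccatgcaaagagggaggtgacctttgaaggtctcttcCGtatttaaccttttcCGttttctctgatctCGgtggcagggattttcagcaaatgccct

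These stretches held 34 CG dinucleotides in Snhg5, 41 in Gm17494 and 22 in 2500002B13Rik, against 11 in Gm17337, 9 in 1110002J07Rik and 4 in Gm11019. The GC box GGGCGG, read on both strands, was found 2 times in the Snhg5 stretch and 1 time each in those of Gm17494 and 2500002B13Rik. Among stretches of this length it was held by 42.5% of lincRNA genes and by 31.5% of all autosomal genes. For protein-coding genes the share was 43.7%. Among lincRNA genes it was 61.1% with a protein-coding start within 2 kb and 26.1% with none within 5 kb. The TATA motif TATAAA was found 1 time, in the Snhg5 stretch, and was held by 9.01% of lincRNA genes and 15.8% of all autosomal genes. The octamer ATGCAAAT, a motif of Oct4, was held by 1.14% of the lincRNA stretches and 2.27% of all, and it was in none of the 6 shown. The motif TCAAGGTCA of Esrrb was held by 0.731% (9 lincRNA genes) against 0.488% (169 of all genes). A composite motif of Sox2 and Oct4, which overlaps the octamer in part, was held by 0.0812% (1 lincRNA gene) against 0.0375% (13 of all genes).

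Windows were read as the number of distinct alignments whose 5′ end fell inside, divided by the autosomal mean density of the same library, and a start was called marked at 5-fold or more. At the mean, a window held 11.2 alignments in the H3K4me3 library, 2.50 in the F123 H3K27ac library and 12.3 in the J1 library. The 5-fold threshold thus stood at 57, 13 and 62 alignments. The starts nearest to it were 4930467D21Rik at 4.99-fold and Gm2895 at 5.08-fold for H3K4me3, 4930429F24Rik at 4.80-fold and Gm14488 at 5.20-fold for F123 H3K27ac, and Gm17375 at 4.97-fold and Gm17685 at 5.05-fold for J1 H3K27ac. The F123 H3K27ac library held 1576875 distinct alignments with 5.10 reads behind each, so that its single windows are the least precise. RNA-seq libraries held between 5847451 alignments on genes in CAST-/129- and 24891864 in wild type. The FPKM of Sox2 itself, in the order wild type, CAST+/129-, CAST-/129+ and CAST-/129-, was 174, 81.8, 72.8 and 7.38. Of 10 ES cell markers 1 fell past 3-fold in each monoallelic clone and 5 in CAST-/129-, and 0 rose, with a summed FPKM of 1840, 1604, 1505 and 1128 in the same order. Of 15 fibroblast markers 2 rose in each monoallelic clone and 9 in CAST-/129-, while 1 fell in every clone, and their summed FPKM was 58.5, 109, 116 and 544.

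H3K4me3 was found at 559 of the 1232 lincRNA starts, or 45.4%. The share over all autosomal gene starts was 32.4%, that over protein-coding starts was 46.4%, and that over windows of the same length at least 10 kb from any gene was 0.0713%, or 0.885% and 0.740% for H3K27ac in F123 and J1 cells. H3K27ac in F123 cells was found at 397 lincRNA starts (32.2%), beside 20.9% of all starts and 27.9% of protein-coding starts. In J1 cells it was found at 328 (26.6%), beside 16.9% and 22.3%. Both ESC lines carried H3K27ac at 301 lincRNA starts, which is 75.8% of the F123 list and 91.8% of the J1 list. Over all autosomal gene starts these shares were 73.03% and 89.95%, close to those of lincRNA starts. RNA did not follow the same order. Of 1229 lincRNA genes with at least 200 usable exonic bases, 132 (10.7%) reached 1 FPKM in wild type cells, whereas 44.0% of autosomal genes and 55.1% of protein-coding genes did so. In 480 lincRNA genes (39.1%) the wild type library held 0 alignments, beside 32.8% of autosomal genes. In 270 (22.0%) all 4 libraries held 0, a share close to the 22.5% of autosomal genes.

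The position of the nearest protein-coding start separated these windows. For 583 lincRNA genes that start was within 2 kb, at a median distance of 287 bp. Of them 305 were divergent from the neighbour, with the starts back to back, 276 faced it and 2 lay on the same strand. In a facing pair the neighbour starts downstream of the lincRNA start on the other strand, so that both genes can overlap. For 548 genes no protein-coding start was within 5 kb, and the median distance was 32299.5 bp. The remaining 101 lay in between.

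H3K4me3 was called at 453 of the 583 near starts (77.7%) and at 82 of the 548 far starts (15.0%). Put the other way, 81.0% of all marked lincRNA starts had a protein-coding start within 2 kb, so that one window held both. The median H3K4me3 fold was 9.01 at near starts and 1.87 at far starts. H3K27ac differed less by position in F123 cells, with 250 near starts (42.9%) and, at far starts, 44 with and 79 without H3K4me3 (22.4% of far starts). In J1 cells the counts were 186 (31.9%) and 119 (21.7%).

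**Figure D1:**
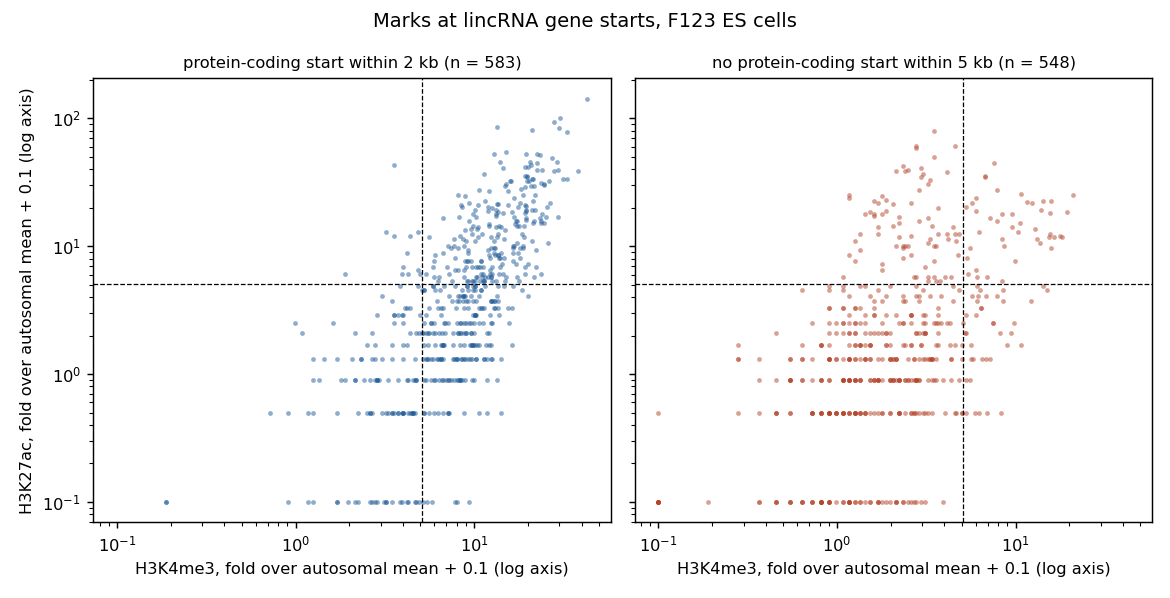
Each point is a lincRNA gene start, with H3K4me3 on the horizontal and H3K27ac on the vertical axis (fold over the autosomal mean plus 0.1, log axes, F123 cells), and dashed lines mark 5-fold. In the left panel 453 of 583 starts lie to the right of the line, while in the right panel 387 of 548 lie below 5-fold in both marks and 79 lie above it in H3K27ac alone.

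Mean profiles showed where in the window the signal lay. At near lincRNA starts the mean H3K4me3 profile was highest 350 bp before the start, at 27.5-fold, over divergent and facing pairs together. At far starts called for H3K4me3 it was highest 250 bp after the start, at 29.6-fold, the position at which the profile of protein-coding starts was highest (26.1-fold). Those far starts were chosen by the mark, so that the height of their profile is a description.

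**Figure D2:**
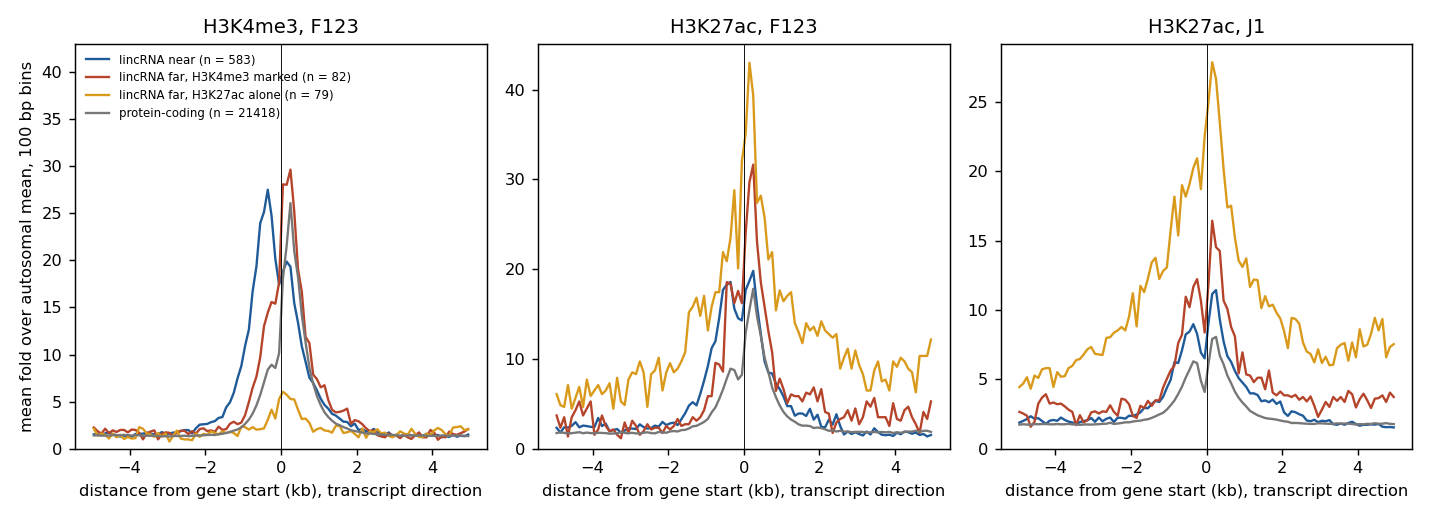
Mean fold over the autosomal mean in bins of 100 bp against the distance from the gene start in transcript direction, for the 3 ChIP-seq libraries. The near lincRNA line is highest before the start for H3K4me3, and the line of far starts with H3K27ac alone reaches 43.0-fold for F123 H3K27ac but 6.05-fold for H3K4me3. Those far starts were chosen by these marks in the same F123 libraries, so that this contrast follows from the choice.

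The neighbours of near lincRNA genes gave far more RNA than the lincRNA genes themselves. In wild type cells the neighbour reached 1 FPKM in 438 of 583 pairs, both genes did so in 46 and the lincRNA gene alone in 1. The neighbour was the higher of the pair in 551, and the median ratio of neighbour to lincRNA was 55.3 over the 391 pairs with alignments on both. Divergent lincRNA genes reached 1 FPKM in 33 of 305 cases (10.8%) and facing ones in 13 of 276 (4.71%). Levels were compared per base of usable exon.

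**Figure D3:**
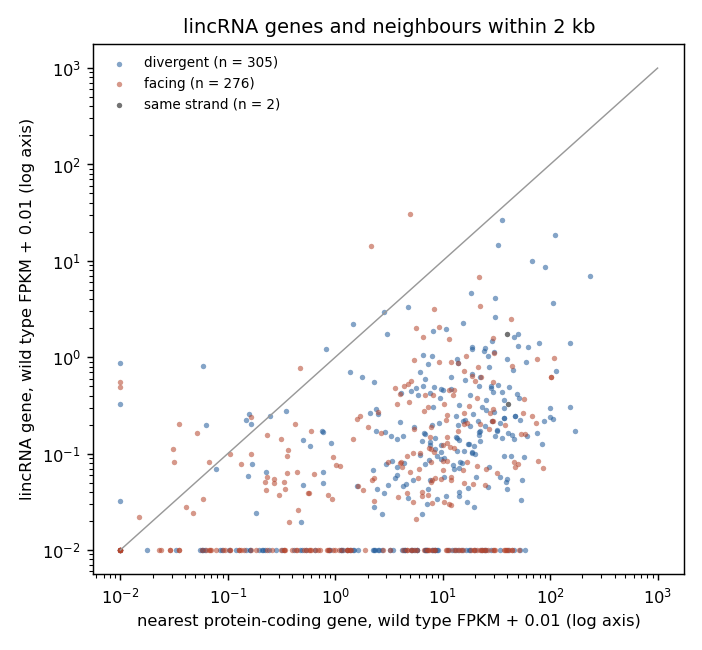
Wild type FPKM of each lincRNA gene (vertical) against that of the protein-coding gene whose start lies within 2 kb (horizontal), both plus 0.01 on log axes, coloured by orientation. The grey line marks equal levels, and 551 of 583 pairs lie below it.

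Far from protein-coding starts, 44 lincRNA starts carried both marks, 38 H3K4me3 alone, 79 H3K27ac alone and 387 neither. At near starts the counts were 238, 215, 12 and 118, and at protein-coding starts 5476, 4457, 507 and 10978. H3K27ac without H3K4me3 thus made up 14.4% of far lincRNA starts, 2.06% of near ones and 2.37% of protein-coding ones. Of the 79, 68 (86.1%) also carried H3K27ac in J1 cells, a library that was not used to choose them. The same share was 84.1% for far starts with both marks, close to it. Over all autosomal starts with H3K27ac in F123 cells it was 73.0%. CpG-rich sequence, defined here as a GC content of at least 50% with at least 0.6 of the expected CG dinucleotides within 500 bp of the start, was present at 59.1% of far starts with both marks and 57.9% of those with H3K4me3 alone. It was present at 6.33% of far starts with H3K27ac alone and 10.6% of those with neither. The share was 31.1% over all autosomal starts, 45.1% over protein-coding starts and 41.1% over all lincRNA starts. Near starts had it in 83.6% of cases with both marks and 74.9% with H3K4me3 alone. With H3K27ac alone 3 of 12 near starts had it, and with neither mark 33 of 118. At either position the share was thus higher with H3K4me3 than without it.

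RNA reached 1 FPKM in wild type cells in 21 of 44 far lincRNA genes with both marks (47.7%). The counts were 7 of 37 (18.9%) with H3K4me3 alone, 19 of 79 (24.1%) with H3K27ac alone and 30 of 385 (7.79%) with neither. The median FPKM was 0.69, 0.10, 0.18 and 0.00 in that order. Near a protein-coding start the shares were lower in all 4 classes, with 34 of 238 (14.3%) for both marks, 9 of 215 (4.19%) for H3K4me3 alone, 1 of 12 (8.33%) for H3K27ac alone and 3 of 118 (2.54%) for neither. Over all positions 13.3% of marked and 8.64% of unmarked lincRNA genes reached 1 FPKM, and over far ones alone 34.6% and 10.6%.

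**Figure D4:**
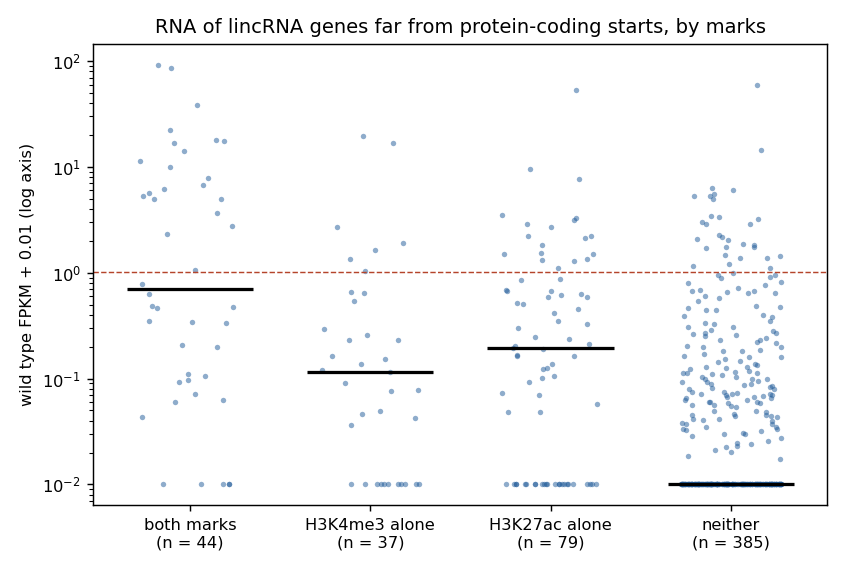
Wild type FPKM plus 0.01 (log axis) of lincRNA genes with no protein-coding start within 5 kb, by marks at the start; points are genes, black bars are medians and the dashed line is 1 FPKM. Genes with both marks have a median of 0.69 FPKM and those with neither a median of 0.00.

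Of the 10 lincRNA genes with the most RNA in wild type cells, 4 were matched to the list of hosts of small RNAs, namely Snhg5, Gas5, Snhg12 and Snhg1. The match was by symbol or synonym, so that hosts under other names are not counted. Snhg5, a host of small nucleolar RNAs whose CpG-dense promoter is printed above, was at 85.3 FPKM, with 11.5-fold H3K4me3, 22.0-fold H3K27ac in F123 and 7.90-fold in J1. 2410006H16Rik was at 92.0 FPKM, and its start had the highest H3K4me3 of all far lincRNA starts (21.0-fold). Gas5, another host and a growth-arrest transcript, was at 30.5 FPKM with 19.7-fold H3K4me3, and Tug1, a broadly expressed lincRNA, at 26.6 FPKM with 25.6-fold. Gas5, Tug1 and Snhg1 start within 2 kb of Zbtb37, Morc2a and Slc3a2, so that their windows are shared. Snhg12 was at 22.3 FPKM, 1700020I14Rik (Oip5os1, also known as Cyrano) at 19.6, Snhg1 at 18.7 and 2410004N09Rik at 38.5. All of these starts carried H3K4me3. Reads before collapsing gave 42.5 FPKM for Snhg1, so that its place in the order depends on the treatment of identical alignments.

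Gm11019, listed in later annotation as Lncenc1, a lincRNA of ES cells, differed from them. Its level was 53.02 FPKM, yet its start had 2.05-fold H3K4me3. The F123 library gave 10.01-fold H3K27ac there and the J1 library 29.9-fold, and the promoter stretch held 4 CG dinucleotides. Gm10060 was at 59.1 FPKM with 0.27-fold H3K4me3, but 92.3% of the 32-base words in its window and 90.1% of those in its exons occur more than once in the genome, so that its values cannot be assigned to this copy. The same held for Gm16986, at 6.32 FPKM with 0.89-fold H3K4me3, with 90.2% repeated words in its window. Rian, at 18.2 FPKM and 0.53-fold, has 0.23% repeated words in its window and 17.7% in its exons, and lies downstream of Meg3 in the imprinted Dlk1-Dio3 cluster.

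Of the 37 far starts with at least 20-fold H3K27ac in F123 cells, 13 (35.1%) carried H3K4me3, and 13 reached 1 FPKM in wild type cells, up to the 92.0 FPKM of 2410006H16Rik. These proportions were similar to those of all far starts with H3K27ac. Among those, 44 carried H3K4me3 and 79 did not, and 21 and 19 of them reached 1 FPKM. The 5 with the highest H3K27ac lacked an H3K4me3 call. Gm17337, whose promoter is printed above, had 79.7-fold H3K27ac in F123, 51.2-fold in J1 and 3.39-fold H3K4me3, and its RNA was at 0.08 FPKM in wild type from 3 alignments. Gm17619 had 60.9-fold, Gm17516 60.5-fold, BC046401 58.1-fold and 4930461G14Rik 50.04-fold in F123, and each was between 34.4-fold and 41.7-fold in J1. Their wild type RNA was at 0.44, 1.84, 0.00 and 2.68 FPKM, and BC046401 held 0 alignments in every library. Reads before collapsing put Gm17516 at 0.95 FPKM, so that it reached 1 FPKM with distinct alignments only. The opposite case was H3K4me3 without RNA. Gm17395 had 15.5-fold, Gm17494 15.3-fold and Gm16718 14.1-fold H3K4me3, with little or no RNA detected. Gm17395 held 2 alignments in CAST+/129- (0.05 FPKM) and 0 in the other libraries. Gm17494 and Gm16718 held 0 in all, which allows up to 0.285 and 0.728 FPKM in CAST-/129-, the library with the highest limit, when 0 is read as up to 3 alignments. Other far starts high in H3K4me3 were those of Dleu2 (19.3-fold, 0.45 FPKM), which hosts microRNAs, Snhg7 (18.0-fold, 5.02 FPKM) and 5430416N02Rik (17.7-fold, 5.28 FPKM).

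The listed groups differed in their counts, which stand beside 45.4% with H3K4me3, 32.2% with H3K27ac and 10.7% at 1 FPKM over all lincRNA genes. Of 25 listed hosts of small RNAs 11 were matched to lincRNA genes here. With distinct alignments all 11 reached 1 FPKM, and 9 carried H3K4me3 and 8 H3K27ac. Reads before collapsing put 1 of them, Snord123 (Snhg18), at 0.78 FPKM. The list is not complete, since Dleu2, which hosts microRNAs and was at 0.45 FPKM, is not on it. Of 50 ES cell and early lineage RNAs 17 are members, of which 5 reached 1 FPKM, 2 carried H3K4me3 and 6 carried H3K27ac. Expressed among them were Gm11019, 4930500J02Rik (Platr14, 14.3 FPKM), C430002E04Rik (Platr4, 10.02), C330046G13Rik (Platr7, 3.52) and Gm16880 (Platr22, 3.28), the Platr names standing for pluripotency-associated transcripts. Reads before collapsing gave lower levels of 5.71, 2.03 and 1.95 FPKM for Platr4, Platr7 and Platr22. Platr7 and Platr22 had 22.8-fold and 36.4-fold H3K27ac in F123 with 1.78-fold and 2.94-fold H3K4me3. Of the 17, 4 held 0 alignments in wild type, namely Fendrr, Hottip, Dlx1as and Evx1os. Other lineage RNAs held few, with 3 for Rmst, 4 for Hoxa11as and 17 for Six3os1, while Sox2ot, which overlaps Sox2, held 144 (0.68 FPKM). Sox2ot was at 0.54 FPKM in CAST+/129-, 0.42 in CAST-/129+ and 0.12 in CAST-/129-, from 58, 22 and 6 alignments. CAST-/129- was at 17.7% of wild type, with a counting interval from 6.40 to 39.6%. In CAST+/129- the interval took in equality. The study also states, without showing data, that deleted alleles no longer gave the noncoding RNA Peril. Of 9 broadly expressed RNAs 4 are members, and 3 of these reached 1 FPKM. Of 8 imprinted RNAs 5 are members, and 4 of these reached 1 FPKM. The only member among 3 nuclear RNAs, Miat, was at 0.24 FPKM.

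In the edited clones few lincRNA genes moved past 3-fold on the log2 scale of FPKM plus 4 that the study's methods use. In each clone 1 gene rose and 0 fell. The share of all 31498 genes that rose was 0.321% in CAST+/129-, 0.473% in CAST-/129+ and 0.813% in CAST-/129-, and 0.305%, 0.330% and 0.511% fell. A gene needs at least 8 FPKM in one of the libraries to pass, which between 26 and 27 lincRNA genes had in a given comparison. Over all genes 8596 had it in CAST+/129-, 8659 in CAST-/129+ and 8863 in CAST-/129-. Of these 101, 149 and 256 rose and 96, 104 and 161 fell. The low counts among lincRNA genes thus stand beside few genes that could pass. The gene that rose was Gm16869, at 14.2 FPKM in wild type cells and at 323, 436 and 202 FPKM in the clones, here and below in the order CAST+/129-, CAST-/129+ and CAST-/129-. It lies at the assembled end of chromosome 9 (start at position 3038313), and 96.5% of the 32-base words in its exons and 75.2% of those in its window occur elsewhere, so that its reads cannot be assigned to this copy. Without lincRNA genes whose exons are mostly repeated words, 0 rose and 0 fell in every clone.

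With 1 added in place of 4, which lowers the required level to 2 FPKM, the counts of rises and falls were 4 and 1 in CAST+/129-, 5 and 4 in CAST-/129+, and 4 and 7 in CAST-/129-. Over all genes 0.911% rose and 1.10% fell in CAST+/129-, 1.36% and 1.29% in CAST-/129+, and 2.22% and 1.79% in CAST-/129-. These shares include genes too low to pass. The required level was reached by 94, 98 and 93 lincRNA genes in the same order of clones. Over all genes 12712, 12909 and 13204 reached it, of which 287, 427 and 699 rose and 348, 407 and 564 fell. The genes named next passed this rule in CAST-/129- and moved the same way in both monoallelic clones, a rule that was added after the values were seen. With reads before collapsing in place of distinct alignments, and 1 still added, 2 rose and 0 fell in CAST+/129-, 1 and 0 in CAST-/129+, and 5 and 1 in CAST-/129-. Over all genes 0.838% and 0.873%, 1.33% and 0.844%, and 2.36% and 1.02% did so in the same order. The rises named below kept their call in CAST-/129- with reads, whereas of the 6 falls 1110002J07Rik alone kept it, at 3.47-fold on this scale. The other falls lay between 2.36-fold and 2.94-fold, still lower in all 3 clones. All comparisons share the wild type library. In such bulk samples fewer cells that make a transcript and less transcript per cell cannot be told apart. The changes of fibroblast and ES cell markers given above, in all 3 clones, stand beside all of these values, and their part in them was not tested.

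1110002J07Rik, a far start with 42.0-fold H3K27ac in F123, 20.1-fold in J1 and 2.23-fold H3K4me3, was at 9.49 FPKM in wild type cells and at 3.55, 2.13 and 1.38 in the clones. All 3 clones were below wild type, with CAST-/129- at 14.5% of it (95% interval 8.53 to 23.2%). RP23-252I12.4, whose start faces that of Vax2, a homeobox gene of the eye, was at 3.17, 0.66, 0.00 and 0.00 FPKM in the same order, and CAST-/129- was at least 8.30-fold below the measured wild type level when 0 is read as up to 3 alignments. Its 95% interval, which takes in the error of wild type too, reached up to 15.1% of wild type. Vax2 went from 8.37 FPKM to 0.26, 0.40 and 0.28. 1010001N08Rik, which begins 57 bp from the start of Gata6, the gene of an endoderm transcription factor, was at 2.46, 0.00, 0.48 and 0.00 FPKM, in CAST-/129- at least 9.87-fold below the measured wild type level by the same reading, with an interval up to 12.6% of it. Gata6 went from 42.9 FPKM to 2.93, 6.75 and 4.50. In both pairs the lincRNA and its neighbour were below wild type in all 3 clones. Gm9918, with 12.41-fold H3K27ac in F123 and 15.5-fold in J1, was at 2.24, 0.37, 0.60 and 0.00 FPKM. Reads before collapsing put the wild type level at 1.52 FPKM for RP23-252I12.4, 1.46 for 1010001N08Rik and 1.36 for Gm9918, and the 3-fold call was lost in each. For 1110002J07Rik reads put it at 5.89 FPKM, and the call was kept. Gm10060 and Gm17656 also passed with distinct alignments only, and both consist mostly of repeated words.

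Besides Gm16869, the genes that rose past this threshold in CAST-/129- were A930024E05Rik, Gm2115 and Snord123. A930024E05Rik, a far start with both marks (9.45-fold H3K4me3 and 17.6-fold H3K27ac in F123), was at 0.61 FPKM in wild type cells and at 3.29, 4.08 and 6.31 in the clones, 10.3-fold wild type in CAST-/129- (95% interval 6.58 to 16.4). Gm2115, with neither mark, was at 0.07, 2.39, 0.72 and 6.60 FPKM, and its wild type value rests on 3 alignments. The ratio of CAST-/129- to wild type was 101, with an interval from 33.1 to 500.1. Snord123, annotated later as Snhg18 and divergent from Sema5a, the gene of a semaphorin, was at 1.22, 1.62, 1.78 and 6.12 FPKM, 5.01-fold wild type in CAST-/129- (95% interval 3.31 to 7.63). In the monoallelic clones it did not differ from wild type beyond counting error, with intervals of the ratio from 0.81 to 2.16 in CAST+/129- and from 0.77 to 2.63 in CAST-/129+. Sema5a was at 0.82, 0.62, 1.16 and 3.12 FPKM. Both genes of this pair were highest in CAST-/129-.

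**Figure D5:**
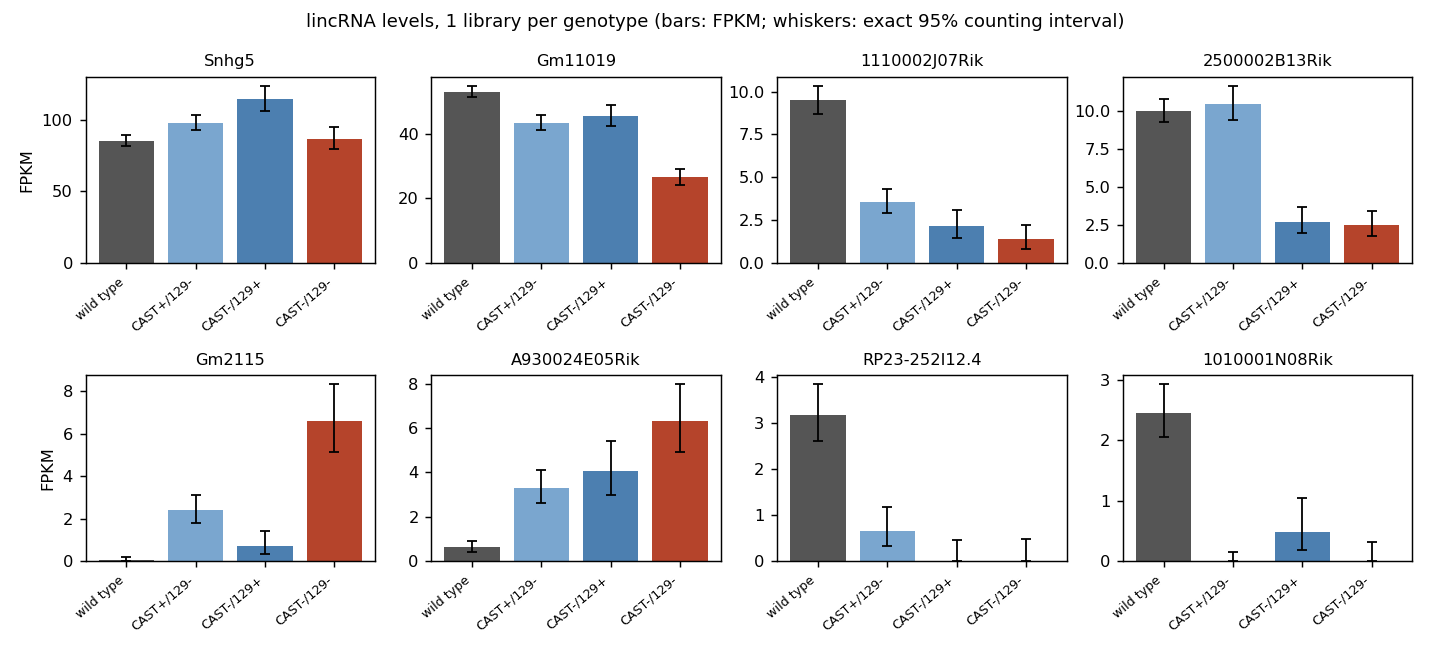
FPKM (bars) of 8 lincRNA genes in the 4 RNA-seq libraries with exact 95% counting intervals (whiskers), each panel with its own axis from 0. 1110002J07Rik, RP23-252I12.4 and 1010001N08Rik are highest in wild type, Gm2115 and A930024E05Rik are highest in CAST-/129-, and Snhg5 stays between 85.3 and 115 FPKM.

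2500002B13Rik, chosen after its values were seen, begins 194 bp from Sap30, which encodes a part of the Sin3 deacetylase complex, and their shared window had 42.8-fold H3K27ac in F123 and 37.0-fold in J1. The lincRNA was at 10.04 FPKM in wild type and 10.5 in CAST+/129-, but at 2.70 in CAST-/129+ and 2.48 in CAST-/129-. Sap30 was at 67.7, 59.6, 37.1 and 18.1 FPKM. Both genes lie on chromosome 8, where the median log2 ratio of 545 genes at a mean of at least 5 FPKM stood at -0.34 for CAST-/129+, -0.28 for CAST-/129- and 0.07 for CAST+/129-. The medians of the other autosomes lay between -0.10 and 0.02 in CAST-/129+ and between -0.12 and -0.01 in CAST-/129-. Gm10060 lies on the same chromosome. What the shift of the chromosome adds to these values was not tested.

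Among the abundant lincRNAs, Gm10060, which consists mostly of repeated words, was at 30.5% of wild type in CAST-/129- (95% interval 27.6 to 33.7%). Snhg5 was at 85.3 FPKM in wild type cells and at 97.8, 115 and 86.6 in the clones. Gm11019 was at 53.02, 43.4, 45.6 and 26.5 FPKM, 49.97% of wild type in CAST-/129- (95% interval 45.1 to 55.3%). Reads before collapsing gave it 35.2, 30.2, 32.7 and 20.9 FPKM, a smaller fall that the interval does not cover. Tug1 was at 26.6, 16.6, 16.1 and 19.2 FPKM, below wild type in all 3 clones. For the short and abundant 2410006H16Rik the direction in CAST-/129+ and CAST-/129- depended on the treatment of identical alignments, since distinct alignments gave 92.0, 113, 119 and 99.9 FPKM and reads gave 138, 143, 135 and 109. Among the RNAs of the Dlk1-Dio3 cluster, Meg3 was at 16.7, 28.6, 22.1 and 17.1 FPKM, Rian at 18.2, 30.9, 22.4 and 19.5, and Mirg at 5.35, 11.6, 6.55 and 4.31. All 3 were highest in CAST+/129-. Airn, the imprinted antisense transcript of the Igf2r locus, was at 0.63, 1.52, 2.43 and 2.20 FPKM, and Platr22 at 3.28, 8.02, 7.68 and 6.99 FPKM, both higher than wild type in every clone.

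A count of lincRNA genes whose counting interval of the ratio to wild type leaves out equality was added after the 3-fold counts were seen, and its outcome depended on how genes were selected. It was run first on the 132 lincRNA genes with at least 1 FPKM in wild type, where 27 were higher and 54 lower in CAST+/129-, 22 and 51 in CAST-/129+, and 21 and 64 in CAST-/129-. Over all 13589 genes selected in the same way, 30.8% were higher and 43.5% lower in CAST+/129-, 26.6% and 43.6% in CAST-/129+, and 26.5% and 45.1% in CAST-/129-. That selection uses the wild type library, which is also the denominator, so the count was repeated on the 128 genes with a mean of at least 1 FPKM over the libraries. That mean takes in the edited clones, so a gene can enter through its level in a clone alone. This second selection can thus favour higher calls, as the first can favour lower ones. There 47 were higher and 30 lower in CAST+/129-, 38 and 28 in CAST-/129+, and 33 and 46 in CAST-/129-. Over all 13818 genes selected by the mean, 34.8% were higher and 39.9% lower in CAST+/129-, 30.9% and 40.2% in CAST-/129+, and 31.1% and 41.7% in CAST-/129-. The direction of the majority among lincRNA genes turned with the selection in both monoallelic clones and did not turn in CAST-/129-. Both counts used distinct alignments and were not repeated on reads before collapsing. The wild type library held 2.58 reads per distinct alignment and CAST-/129- 1.84, and what this adds to the counts was not tested. These intervals cover counting error alone, and most of the genes selected by the mean fell outside equality in each clone.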

How the data were processed

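The 7 deposited files list alignments on mm9, made by the authors with Bowtie for ChIP-seq and with Novoalign for RNA-seq, per the labels. Identical alignments are collapsed, and the deposited count of a line was taken to be its number of reads. Tool versions are not given in the sources used here. Distinct alignments were counted. ChIP-seq was counted by 5′ ends in windows of 2 kb on each side of GENCODE M1 gene starts and divided by the autosomal mean, with no input. RNA-seq was counted on the sense strand, by midpoint, in exonic bases of 1 gene of that strand, with at least 200 such bases, and FPKM used the alignments on genes. The H3K4me3 antibody is given differently by the labels (Abcam) and by the methods (Millipore). A pseudo-value of 4 was added to FPKM before taking log2 ratios, and changes past 3-fold were counted.

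Poisson and binomial intervals are exact, and a count of 0 is read as up to 3. With 1 library per condition no test was made. Members and lists were chosen with earlier results of these data known. Genes were named by rules: the 10 highest in wild type, up to 5 rises and up to 5 falls past 3-fold that moved alike in both monoallelic clones, the 5 highest far starts of each mark, 3 far starts with H3K4me3 but under 0.1 FPKM, 3 expressed genes under 1-fold H3K4me3, and list members. The rule for rises and falls found 1 rise and 0 falls. 2500002B13Rik, the genes past 3-fold at a pseudo-value of 1 and the printed promoters were chosen after values were seen. Repeated sequence was measured as 32-base words occurring more than once, with a limit of 50%. The rules were tested on simulated data. Alleles were not told apart. Scripts ran in Python 3.11.15 with scipy 1.17.1, numpy 2.4.6, numba 0.67.0, pandas 2.3.3 and matplotlib 3.10.9.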

Additional observations from a re-analysis of the deposited data

How the results depend on the processing

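No paired analysis was possible because each condition had 1 library. Of 78 alternatives 43 left a count within 1.5 times of its value or a share within its 95% interval. Marked starts are compared as shares, a choice made after the data were seen. In the order H3K4me3, F123 H3K27ac and J1 H3K27ac, the shares were 59.6%, 42.9% and 40.3% at 3-fold, 22.2%, 20.9% and 13.8% at 10-fold, 52.7%, 37.1% and 33.9% with 1 kb on each side, and 54.1%, 45.6% and 39.2% against the density of gene-free windows. Of starts with no protein-coding start within 5 kb, 15.0%, 22.4% and 21.7% were marked. At 0.5 FPKM 211 lincRNA genes were expressed and at 2 FPKM 79; reads before collapsing gave 88. With a pseudo-value of 1, 4 rose and 1 fell in CAST+/129-, 5 and 4 in CAST-/129+, and 4 and 7 in CAST-/129-. With a pseudo-value of 1 on reads before collapsing, added after the data were seen, 2 rose in CAST+/129- and 5 rose and 1 fell in CAST-/129-. At 2-fold, 2 rose and 0 fell in CAST+/129-, 1 rose and 3 fell in CAST-/129+, and 4 rose and 4 fell in CAST-/129-. The share over all genes was not counted at 2-fold, so these counts cannot be read as many or few. Without genes of repeated exons, an alternative added after the data were seen, 0 rose in each clone, because Gm16869 was the only rise. The share of marked starts with a protein-coding start within 2 kb was 88.3% at 10-fold, 75.3% with 1 kb on each side, and 71.6% and 85.3% for neighbours within 1 kb and 5 kb. The share of marked genes at 1 FPKM was 18.2% at 10-fold, 21.0% at 0.5 FPKM and 34.6% away from protein-coding starts, and that of unmarked genes was 14.0% at 0.5 FPKM. A window at the mean held 2.50 alignments in the F123 H3K27ac library, which makes its single starts the least precise.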
